A study of Mus musculus with 24 samples.

Results

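Collagen chain genes were taken as every gene whose mouse symbol is Col, a number, the letter a and a number, and 40 of the 23972 genes measured in liver met this rule. The members were sorted by the kind of polymer their chains build: 10 fibrillar collagens, 8 collagens of basement membranes and 22 others, which include the fibril-associated, microfibrillar, short-chain and transmembrane collagens. Of the 44 genes with such symbols in the mouse gene list, Col2a1, Col9a1, Col19a1 and Col26a1 were not analysed here.

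Liver RNA was sequenced from 24 young adult female mice, 1 library per animal. Control mice carried floxed Lmna alleles (Lmna fl/fl) and no Cre transgene. Lmna ADKO mice, labelled Lmna.KO, carried the same floxed alleles and Adipoq-Cre, whose promoter is active in adipocytes, and lose most of their fat. All groups were fed a high-fat diet and kept at room temperature, and received either vehicle (7 control, 6 ADKO libraries) or an AAV8 vector encoding mouse FGF21 (3 control, 8 ADKO libraries), as the group marked Rescue in the labels was read from the methods of the study. FGF21 is a hormone that liver secretes. The comparisons asked whether liver transcripts differ with lipodystrophy and with the FGF21 vector.

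Each collagen molecule is a triple helix of chains. Fibrillar chains such as those of types I, III and V pack into banded fibres, type IV chains form the sheet-like network of basement membranes, and fibril-associated collagens decorate fibres. In liver, fibre-forming collagens come mostly from stellate cells and fibroblasts and build up as scar in fibrosis, sinusoidal endothelium and stellate cells make type IV collagen, and hepatocytes make Col18a1, whose carboxyl-terminal fragment is endostatin.

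Libraries held 19863304 to 21510054 counts. Levels are given as CPM, the share of a library's reads that a gene took on a scale common to all libraries, with library sizes scaled by edgeR's TMM factors. A gene was called when edgeR's quasi-likelihood test gave an adjusted p (Benjamini-Hochberg over all 23972 genes) under 0.05 and the fitted fold change exceeded 1.5 in either direction. The p-values measure the spread between these animals only. Lmna, the targeted gene, was detected in every library at 26.7 ± 2.57 CPM (SD, n = 6) in vehicle-treated ADKO livers and 18.6 ± 2.47 (SD, n = 7) in controls (log2 difference 0.52, edgeR adjusted p = 0.00322), but liver is not where Adipoq-Cre acts, so this level does not check the deletion. Fgf21 counts did not separate the treatments (log2 difference 0.24 in controls with edgeR adjusted p = 0.925, and -0.58 in ADKO mice with edgeR adjusted p = 0.730). Whether reads from the vector count toward the Fgf21 gene was not tested, so these counts do not check its expression. The study itself reported raised plasma FGF21 after transduction, more so in ADKO mice. In 3 libraries long genes took a smaller share of the counts than in others of their genotype. Each gene's log2 CPM was taken relative to its median over the libraries of the same genotype, and regressed on log2 exonic gene length. The slope was -0.33 in FGF21-treated ADKO replicate 7, -0.29 in FGF21-treated control replicate 3 and -0.15 in vehicle-treated control replicate 3. The TMM factors of these 3 were 0.791, 0.809 and 0.867. In the other 21 the slope was -0.11 to 0.13. A slope taken within genotype cannot show a length bias between genotypes.

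Upstream sequences are shown for the members that changed with genotype, as the stretch of genome that precedes a RefSeq transcript start. For Col27a1 that start lies inside the annotated gene (chr4:63214004-63334991), and for the other genes shown it is the annotated gene start. RefSeq promoter windows on GRCm38.p6 were available for 33 members (35 windows of 250 bases). Of the 10 members called in vehicle-treated animals 9 had a window, and the 4 windows that hold no annotated exon are printed 5′ to 3′ along the gene's own strand. Capitals mark matches on either strand to CCAAT (the box bound by NF-Y), to TATAAA (the TATA box), to GGGCGG (a GC box, read as CCGCCC on the other strand) and to TGANTCA (the AP-1 site).
Col27a1 (chr4:63215162-63215411, plus strand): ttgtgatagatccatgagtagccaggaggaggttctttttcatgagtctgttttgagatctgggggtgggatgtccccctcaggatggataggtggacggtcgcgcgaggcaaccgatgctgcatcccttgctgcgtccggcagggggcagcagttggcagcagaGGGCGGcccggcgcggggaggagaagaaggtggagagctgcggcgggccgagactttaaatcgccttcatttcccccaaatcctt
Col5a3 (chr9:20815068-20815317, minus strand): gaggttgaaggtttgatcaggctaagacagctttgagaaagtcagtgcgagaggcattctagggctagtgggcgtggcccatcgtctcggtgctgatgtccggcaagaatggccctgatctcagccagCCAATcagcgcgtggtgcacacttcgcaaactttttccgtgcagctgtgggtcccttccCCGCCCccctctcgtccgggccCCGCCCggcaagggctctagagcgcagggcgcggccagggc
Col3a1 (chr1:45311288-45311537, plus strand): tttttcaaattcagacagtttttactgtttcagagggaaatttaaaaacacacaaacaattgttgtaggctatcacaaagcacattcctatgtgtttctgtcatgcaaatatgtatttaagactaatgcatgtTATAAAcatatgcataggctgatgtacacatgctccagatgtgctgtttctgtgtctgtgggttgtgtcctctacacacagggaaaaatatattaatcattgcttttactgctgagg
Col8a1 (chr16:57754738-57754987, minus strand): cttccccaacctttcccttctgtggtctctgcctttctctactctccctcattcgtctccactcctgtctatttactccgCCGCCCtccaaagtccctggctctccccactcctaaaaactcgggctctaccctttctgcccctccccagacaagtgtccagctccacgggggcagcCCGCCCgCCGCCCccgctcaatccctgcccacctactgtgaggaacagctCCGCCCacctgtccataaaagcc

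The windows differed in make-up. That of Col27a1 held 1 GC box, 85 bases before the start, and that of Col5a3 held a CCAAT box at 122 bases and GC boxes at 63 and 41 bases. Col8a1 had 4 GC boxes, while Col3a1 had none and held 1 TATAAA, at 117 bases. Over the 35 member windows GGGCGG occurred in 62.9%, against 32.7% of all 32851 windows, while CCAAT (34.3% against 33.8%) and TATAAA (14.3% against 12.4%) were about as frequent as elsewhere. TGANTCA was found in 1 member window (2.86% against 6.75%). Member windows were also richer in G and C (median 59.6% against 52.4%), and the part of base composition in the GC-box share was not tested. A match is a string of letters and not a measured binding site.

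Collagen transcripts spanned a wide range. A mean log2 CPM of at least 0 over the 24 libraries was reached by 19 members, namely 7 fibrillar, 5 basement membrane and 7 other collagens. Per kb of transcript, Col18a1 led in vehicle-treated controls with 173 CPM per kb, followed by Col14a1, a fibril-associated collagen, at 8.75 and Col3a1 at 6.53 CPM per kb. The type IV pair Col4a1 and Col4a2 stood at 4.92 and 3.11, the type I chains Col1a2 and Col1a1 at 3.04 and 1.57, and Col27a1 at 0.631 CPM per kb. Col12a1 and Col4a5, at 0.167 and 0.155 CPM per kb, were the lowest of the 19. The other 21 members stayed at or below 2.38 CPM in every library, and 5 of them had at most 3 counts in each, a level at which differences were not detectable at this depth (3 counts equal 0.124 to 0.176 CPM).

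**Figure D1:**
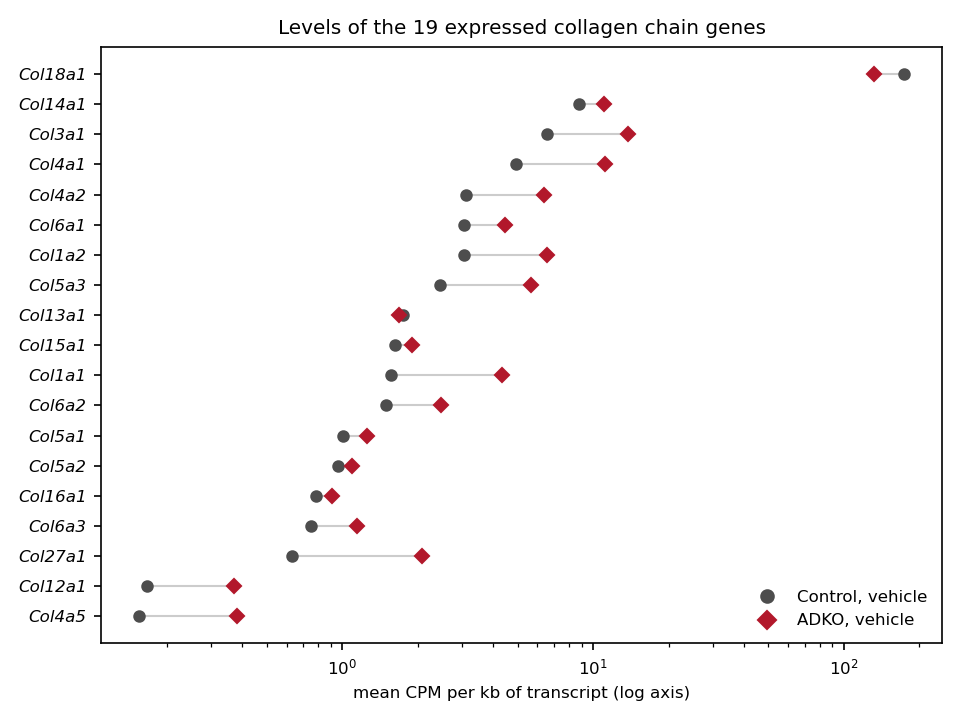
Mean CPM per kb of transcript (log axis) of the 19 expressed collagen genes in vehicle-treated control and ADKO livers, coloured by genotype. Col18a1 lies far to the right of all others in both genotypes, at 173 CPM per kb in controls and 132 in ADKO livers.

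In vehicle-treated mice, 9 of the 40 collagen genes rose in ADKO liver and 1 fell. Those that rose were the fibrillar Col27a1, Col5a3, Col1a2 and Col3a1, the type IV chains Col4a1, Col4a2 and Col4a5, and Col12a1 and Col8a1, by 2.05 to 3.28 fold; Col20a1 fell to 0.317 times its control level. Among all genes 5.12% were called higher and 3.36% lower. Of the 19 expressed members 17 had a positive fold change, with a median of 0.73 on the log2 scale, against -0.01 over all 12492 genes at or above the same level. By class, 4 of 7 expressed fibrillar members rose (median log2 fold change 1.10), 3 of 5 basement membrane members (1.03) and 1 of 7 others (0.53). Of the 12492 genes at that level 834 were called higher and 624 lower. In 4 members every ADKO library lay above every control library, as did 4.22% of all genes, and in 2 members every ADKO library lay below (3.73% of all genes). Animal numbers had 3 digits in 6 of the 7 controls and 4 digits in 5 of the 6 ADKO mice, so this series, whose meaning is not stated, could be compared within itself against 1 library only. The ADKO mouse of the first series had 81.0 CPM of Col4a1 and 13.6 of Col27a1, and the control of the second series had 28.5 and 5.41. With the series as a covariate 7 collagens and 3.98% of all genes were called higher. Col4a5 and Col3a1 were then not called, at log2 fold changes of 1.23 and 1.21 (edgeR adjusted p = 0.0529 and 0.0954). Fewer or more cells of a type and less or more RNA per cell cannot be told apart in bulk tissue.

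**Figure D2:**
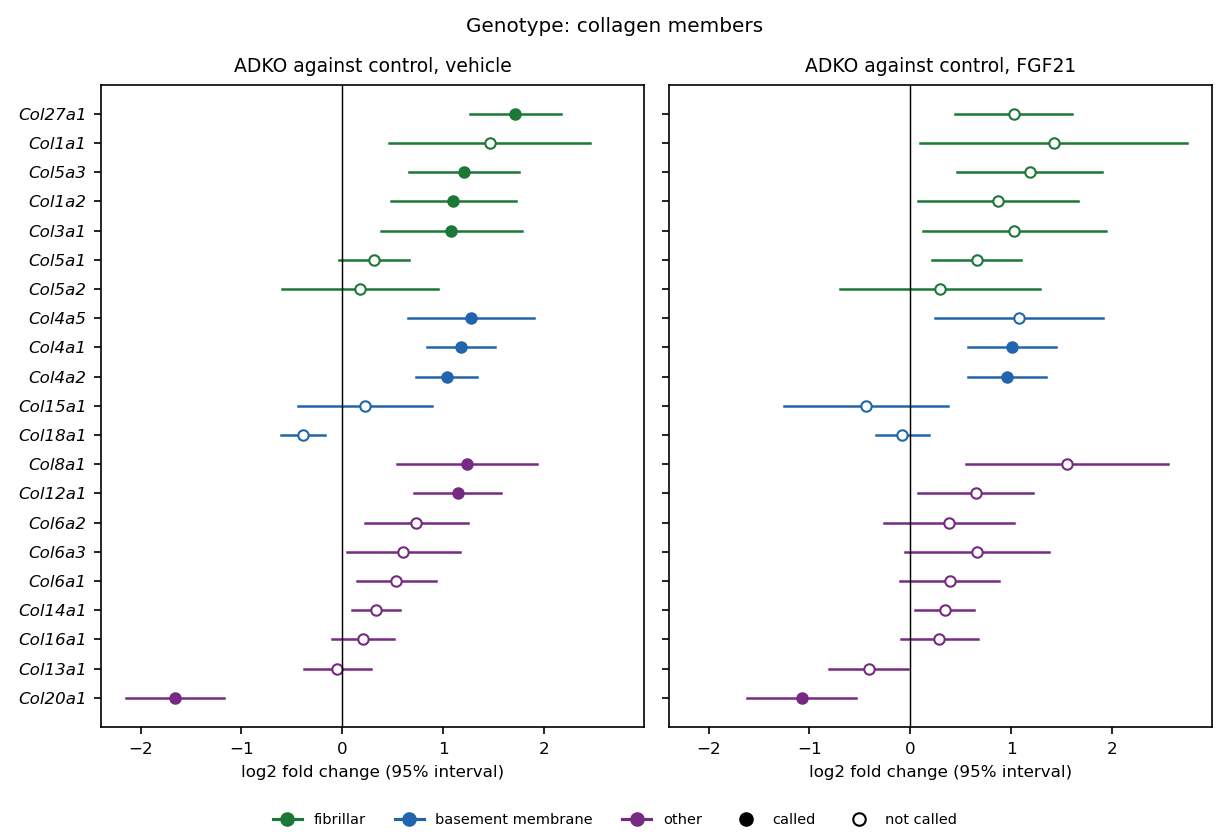
Log2 fold change of ADKO against control with its 95% interval for 21 collagen genes, in vehicle-treated (left) and FGF21-treated (right) mice. Filled points were called by edgeR; under vehicle 10 are filled, and under FGF21 Col4a1, Col4a2 and Col20a1.

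Col27a1 (chr4:63214004-63334991, GRCm38), a fibrillar chain known mainly from cartilage, changed most among the expressed members. Its level ran from 3.13 CPM (median 5.39) to 7.23 in vehicle-treated controls and from 10.3 (median 15.8) to 21.3 in ADKO mice, so the groups did not overlap. The means were 4.81 ± 1.56 CPM (SD, n = 7) and 15.8 ± 3.82 (SD, n = 6), a 3.28-fold difference (log2 1.72 ± 0.23 SE, edgeR adjusted p = 1.25e-05). With FGF21 the controls read 5.75, 5.14 and 4.08 CPM and the ADKO livers 6.44 to 19.3 (median 9.61), again without overlap. The plot of CPM by library shows that replicate 3 of the FGF21-treated ADKO group, at 19.3 CPM, stood apart from the others of its group, which ended at 10.5.

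The type I and III collagens, the bulk of scar fibres, were higher on average and more variable. Col1a2 (chr6:4504814-4541544) spanned 11.6 to 29.9 CPM (median 14.2) in vehicle-treated controls and 17.6 to 49.9 (median 32.9) in ADKO mice, with 4 of 6 ADKO libraries above every control (log2 fold change 1.10 ± 0.32 SE, edgeR adjusted p = 0.0206). The Col3a1 gene (chr1:45311538-45349706) spanned 20.6 to 69.4 CPM (median 32.5) and 40.2 to 110.2 (median 74.0; log2 fold change 1.08 ± 0.36 SE, edgeR adjusted p = 0.0452). In both, the control and ADKO ranges overlapped, with control replicate 4 the highest of its group and ADKO replicate 4 the lowest of its own.

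The Col3a1 call was fragile: it passed in only 2 of the 13 fits that left out 1 library, those without control replicate 4 or ADKO replicate 4, and the adjusted p ranged from 0.00719 to 0.112. Col1a2 kept its call in 11 of 13 and lost it without ADKO replicate 3 (edgeR adjusted p = 0.0594) or 6 (0.0557).

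Col1a1 (chr11:94936224-94953042), the other type I chain, had a large but scattered difference, from 5.31 to 23.5 CPM (median 6.26) in controls and 12.9 to 39.9 (median 22.6) in ADKO mice. Its log2 fold change of 1.46 ± 0.51 SE gave an edgeR adjusted p of 0.0576 and was not called. Without control replicate 4, at 23.5 CPM, the value was 1.89 with an edgeR adjusted p of 0.0136; the next highest control read 10.4 CPM. The ratio of Col1a1 to Col1a2 CPM averaged 0.531 in vehicle-treated controls and 0.721 in ADKO mice.

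Type V collagen nucleates fibres, and its chains did not all pass the test. Col5a3 (chr9:20770050-20815067) rose from 9.89–26.3 CPM (median 14.1) in controls to 19.3–48.3 (median 35.2) in ADKO mice, with 5 of 6 ADKO libraries above all controls (log2 fold change 1.21 ± 0.28 SE, edgeR adjusted p = 0.00461). Col5a1 and Col5a2, the chains that make up most type V molecules, were not called (log2 fold changes 0.31 and 0.18, edgeR adjusted p = 0.259 and 0.834). The Col5a2 value turned on 1 library. Control replicate 4 read 20.8 CPM beside 3.61 to 4.72 in the other 6, and without it the log2 fold change was 0.86 (edgeR adjusted p = 0.0166), past the threshold. No test set one type V chain against another.

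**Figure D3:**
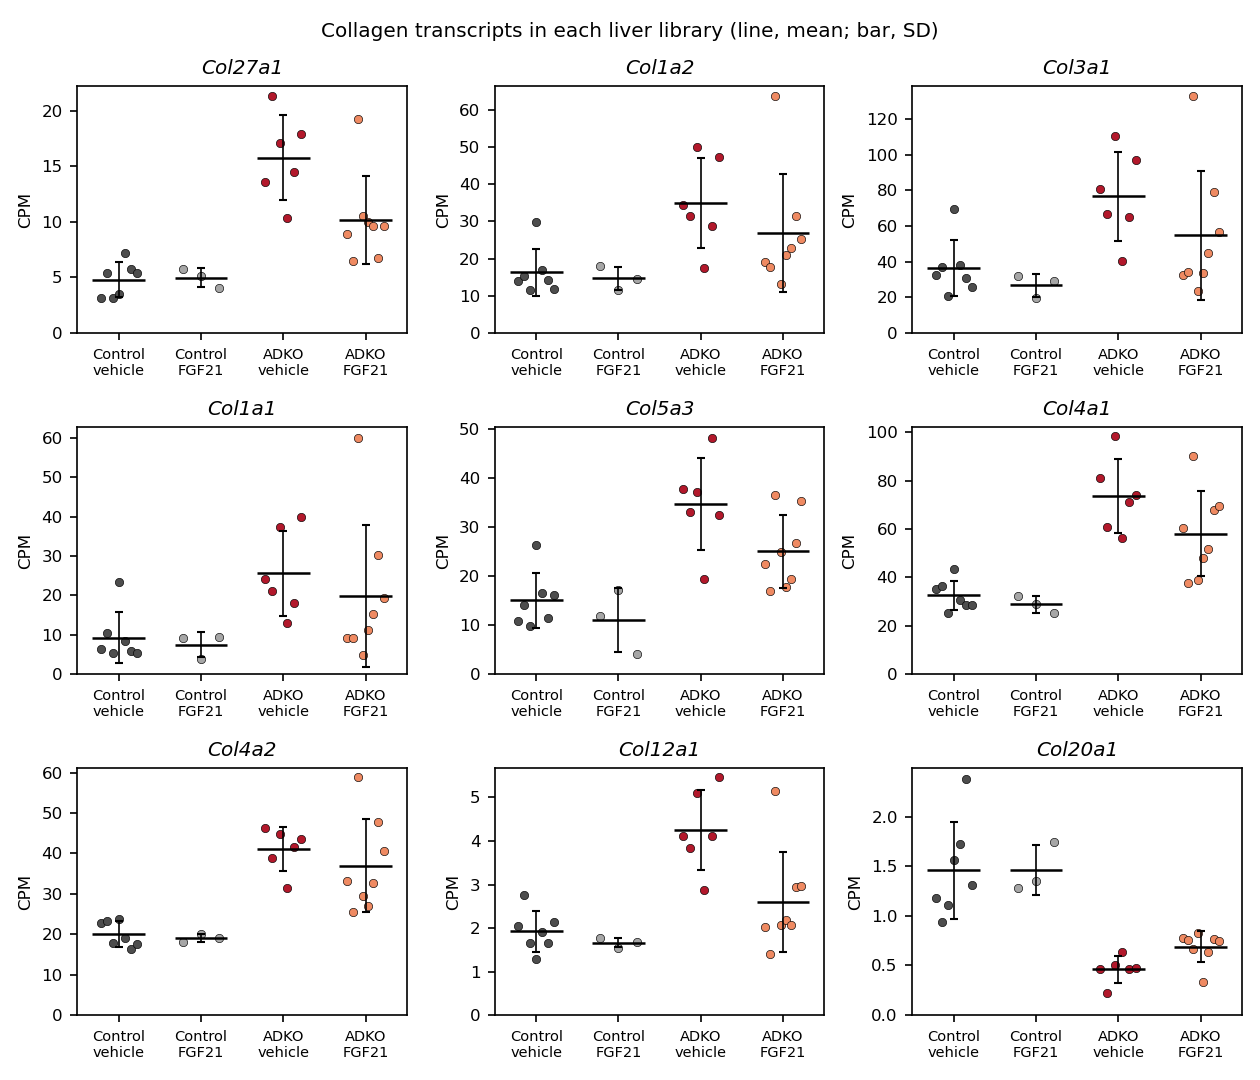
CPM of 9 collagen genes in each library, by genotype and treatment; the line is the group mean and the bar its SD (n = 7, 3, 6 and 8). Under vehicle the control and ADKO points of Col27a1, Col4a1, Col4a2, Col12a1 and Col20a1 do not overlap, while those of Col1a1, Col1a2, Col3a1 and Col5a3 do.

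All 3 expressed type IV genes rose. Col4a1 and Col4a2, whose chains assemble into the common basement membrane heterotrimer, lie head to head on chromosome 8 (chr8:11198423-11312826 and chr8:11312805-11449287), with annotated starts that overlap by 22 bases. Col4a1 ran from 25.4 to 43.2 CPM (median 30.4) in controls and 56.2 to 98.5 (median 72.6) in ADKO mice (73.6 ± 15.2 against 32.6 ± 6.12, SD). Col4a2 ran from 16.3 to 23.8 (median 19.1) and 31.5 to 46.4 (median 42.5; 41.1 ± 5.37 against 20.1 ± 3.14, SD). Neither gene's groups overlapped, and the fold changes of 2.26 and 2.05 had edgeR adjusted p of 2.78e-05 and 2.86e-05. Col4a1 reads stood to Col4a2 reads in a mean ratio of 1.62 in controls and 1.78 in ADKO livers.

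Col4a5 (chrX:141475385-141689234), a chain of the kidney and smooth muscle networks, was found at far lower levels. Controls spanned 0.590 to 1.89 CPM (median 1.02) and ADKO mice 1.25 to 3.76 (median 2.20), with 4 of 6 above every control (log2 fold change 1.28 ± 0.32 SE, edgeR adjusted p = 0.00603). The remaining type IV genes, Col4a3, Col4a4 and Col4a6, were among the low members and not called.

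The multiplexins Col15a1 and Col18a1, which sit at basement membranes, did not rise. Col15a1 spanned 4.87 to 15.0 CPM (median 6.77) in controls and 5.45 to 12.3 (median 10.7) in ADKO mice (log2 fold change 0.23, edgeR adjusted p = 0.730). Col18a1 (chr10:77052178-77166548) was lower in every ADKO library, at 705 to 810 CPM (median 725), than in any control, at 894 to 1055 (median 965). The log2 fold change of -0.39 ± 0.11 SE on the log2 scale had an edgeR adjusted p of 0.0169 but did not reach the fold threshold.

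Among the others, Col12a1 (chr9:79598991-79718831), a fibril-associated collagen of tendon and stressed tissue, was the expressed member that rose. It ran from 1.29 to 2.77 CPM (median 1.92) in controls and 2.87 to 5.47 (median 4.12) in ADKO mice, without overlap (fold change 2.21, edgeR adjusted p = 0.000578). The type VI chains Col6a1, Col6a2 and Col6a3, which build beaded microfibrils, had log2 fold changes of 0.53, 0.73 and 0.60 and were not called (edgeR adjusted p = 0.0756, 0.0614 and 0.178). Col6a2 passed without control replicate 4 (log2 0.91, edgeR adjusted p = 0.0171), as did Col6a1 (edgeR adjusted p = 0.0220). Col14a1, the most abundant of this class, was not called either (log2 fold change 0.33, edgeR adjusted p = 0.0636).

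The 2 low members that were called moved in opposite directions. Col8a1 (chr16:57624258-57754737), a short-chain collagen of vessel walls, ran from 0.111 to 0.737 CPM (median 0.328) in controls and 0.598 to 1.2 (median 0.868) in ADKO mice (fold change 2.35, edgeR adjusted p = 0.0166), and 4 of 6 ADKO libraries lay above all controls. Col20a1 (chr2:180986535-181018363), a fibril-associated collagen, fell: controls spanned 0.937 to 2.38 CPM (median 1.32) and ADKO mice 0.225 to 0.633 (median 0.467), with no overlap (log2 fold change -1.66 ± 0.25 SE, edgeR adjusted p = 2.98e-05). At these levels the lowest control value of Col8a1 lay under 3 counts, and 79 exonic bases of Col20a1 (1.54%) are shared with BX649560.1 on the same strand.

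Summed by class, fibrillar transcripts averaged 206 ± 57.9 CPM (SD, n = 6) in vehicle-treated ADKO livers and 97.8 ± 40.2 (SD, n = 7) in controls. Type IV sums were 118 ± 20.2 and 54.5 ± 9.60 CPM, and no ADKO library fell below 90.9 nor any control above 69.9. For the other collagens the sums were 130 ± 17.5 and 98.8 ± 17.0 CPM, with overlapping ranges. Total collagen averaged 1203 and 1228 CPM, and Col18a1 made up 61.8% of it in ADKO and 79.0% in control livers. Without Col18a1 the totals were 463.8 and 259.5 CPM. These sums give most weight to the highest genes and were not tested.

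**Figure D4:**
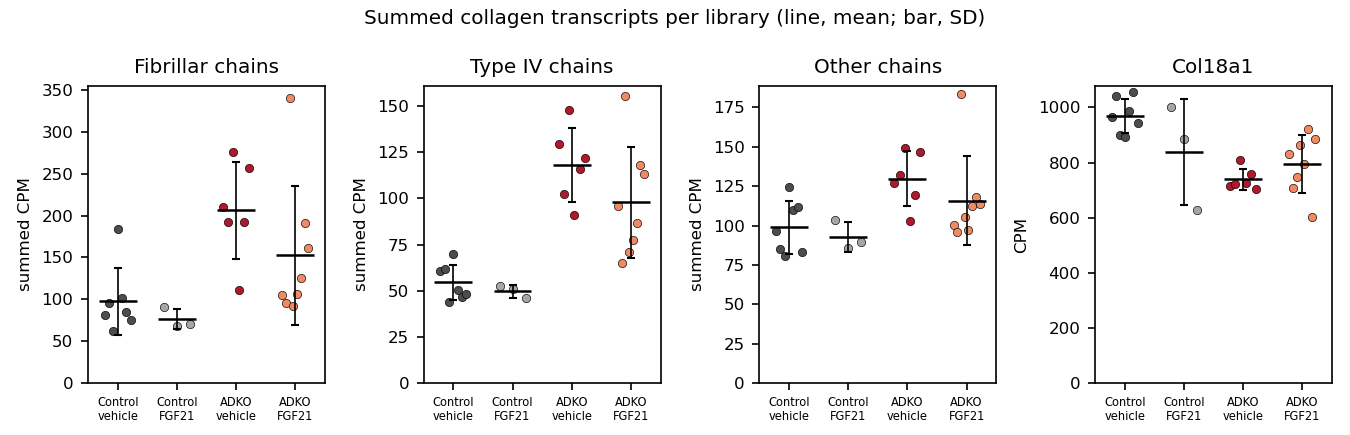
Summed CPM per library of fibrillar, type IV and other collagens, and of Col18a1 alone, by group; line and bar are mean and SD. The type IV sums of vehicle-treated ADKO livers (90.9 to 148 CPM) lie above those of all vehicle-treated controls (44.1 to 69.9), whereas Col18a1 lies below.

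Proteins that fold, process and bind collagen were described from lists. Of 18 genes for chain folding and secretion inside the cell, 1 rose under vehicle, P3h2, a prolyl 3-hydroxylase that acts on type IV collagen (log2 fold change 0.64, edgeR adjusted p = 0.0154). Among 12 measured genes of extracellular processing and cross-linking 2 rose, the lysyl oxidases Loxl2 (1.12, edgeR adjusted p = 0.000248) and Lox (1.34, edgeR adjusted p = 0.0471), and Lox kept its call in 2 of 13 fits without 1 library. Of 10 receptors, Itga2, the α2 subunit of a collagen-binding integrin, rose (1.57, edgeR adjusted p = 0.0176), from 0.0469–0.340 CPM in controls, of which all but 1 value lay at or under 3 counts, to 0.231–0.793 in ADKO livers, and lost its call without ADKO replicate 3 (log2 1.2, edgeR adjusted p = 0.0904). No gene of these lists was called lower. Uncalled genes moved both ways: Bmp1 ran from 108 to 137 CPM in controls and 88.9 to 111 in ADKO livers. P4hb ran from 966 to 1411 and 1494 to 1729 CPM. The summed folding and secretion genes ran from 1496 to 1993 CPM in controls and 2034 to 2279 in ADKO livers. For processing and cross-linking the sums were 150.4 to 168.8 and 127.5 to 164.8, and for receptors 140.6 to 172.3 and 180.5 to 193. Among all genes 5.12% were called higher and 3.36% lower, and the list medians were 0.18, 0.37 and 0.34 against 0.00 over all genes.

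Some markers of cell types that make or accompany collagen differed with genotype too. Of 6 activated fibroblast markers 4 rose, Tagln (log2 fold change 1.36), Lum (1.04), Postn (1.0) and Acta2 (0.73), and the summed level ran from 159.5 to 199.5 CPM in vehicle-treated controls and 241 to 314 in ADKO livers. Dcn, which was not called, made up most of these sums, at 116.5 to 148 and 171 to 226 CPM. Of 8 stellate cell markers only Lrat was called (0.74, edgeR adjusted p = 0.0135), with sums of 117 to 164 and 117 to 161 CPM. The list median was 0.03 on the log2 scale, and the uncalled markers went both ways. Reln ran from 40.8 to 55.4 CPM in controls and 35.1 to 42.9 in ADKO livers, and Pdgfrb from 6.97 to 12.5 and 8.42 to 14.2. Of 6 cholangiocyte markers Spp1 rose (1.83), from 23.3–45.3 CPM to 78.7–186 CPM, and made up most of the list's sum of 27.1 to 51.2 and 85.8 to 196 CPM. Cftr was called higher too, but lay under 3 counts in every control (at most 0.0486 CPM, against at most 0.334 in ADKO livers), and lost the call without ADKO replicate 3 (edgeR adjusted p = 0.0539). Epcam, Krt19, Krt7 and Sox9 were not called (0.64, 0.90, 0.71 and 0.46). Endothelial markers differed in direction: Lyve1 (1.93) and Vwf (0.68) of the 7 rose, Pecam1 and Cdh5 had values of 0.30 and 0.17, and Stab2, Kdr and Clec4g had -0.30, -0.27 and -0.42 and were not called. Their sums overlapped at 223 to 280 and 217 to 273 CPM, and Vwf lost its call without ADKO replicate 2 (log2 0.39, edgeR adjusted p = 0.105) and with the number series as covariate (0.76, 0.0542).

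Of 6 portal fibroblast and mesothelium markers only Fbln2 was called (1.35), with sums of 4.53 to 7.10 and 6.72 to 10.6 CPM and a list median of 0.86. Thy1 went the other way without a call, from 1.77–3.18 CPM in controls to 1.17–2.55 in ADKO livers. No macrophage marker of 6 was called (505 to 698 and 342 to 621 CPM), and of 5 hepatocyte markers Cps1 fell (log2 fold change -0.93). Of 4 adipocyte markers 0 were called. Adipoq (at most 0.609 CPM), Plin1 (0.285) and Lep (0 in every library but 1) were at or near 0, whereas Cfd ran from 0.0454 to 1.92 CPM in vehicle-treated controls and from 1.11 to 1.79 in ADKO livers (log2 fold change 1.79, edgeR adjusted p = 0.0568). Exocrine pancreas markers (0 of 3 called) summed to 0.0927 CPM at most. The part of cell composition in the collagen differences was not tested.

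Under FGF21, Col4a1 and Col4a2 were higher in ADKO than in control liver and Col20a1 was lower; among all genes 1.61% were called higher and 1.26% lower. Col4a1 read 32.2, 29.1 and 25.3 CPM in controls and 37.7 to 90.3 (median 56.2) in ADKO mice (log2 fold change 1.01 ± 0.22 SE, edgeR adjusted p = 0.00879). Col4a2 read 18.1, 20.1 and 18.98 CPM against 25.5 to 59.0 (median 33.0; 0.96 ± 0.20 SE, edgeR adjusted p = 0.00507). In neither gene did the groups overlap.

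Col20a1 read 1.28, 1.35 and 1.75 CPM in FGF21-treated controls and 0.334 to 0.822 (median 0.748) in ADKO mice, also without overlap, as in 2.37% of all genes that lay lower (log2 fold change -1.08 ± 0.28 SE, edgeR adjusted p = 0.0228). Without the 3 libraries of steepest slope on gene length none of the 3 genes was called, at log2 fold changes of 0.90 for Col4a1 (edgeR adjusted p = 0.115), 0.90 for Col4a2 (0.0698) and -0.95 for Col20a1 (0.131). Without control FGF21 replicate 3 alone, Col4a1 (edgeR adjusted p = 0.0816) and Col20a1 (0.161) were not called, and Col20a1 was lost without replicate 2 as well (0.0651). The controls of this comparison all carried animal numbers of 4 digits, as did 4 of the 8 ADKO mice, and among those 4 Col4a1 read 47.9, 51.9, 68.0 and 69.6 CPM, Col4a2 27.1, 32.7, 47.8 and 40.7, and Col20a1 0.334, 0.639, 0.764 and 0.742. Since all 8 ADKO libraries lay clear of the 3 controls in these genes, any 4 of them had to. These values are therefore no check on the number series. What the number series stands for is not stated.

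The fibrillar genes were not called under FGF21. Col27a1 had a log2 fold change of 1.02 ± 0.30 SE (edgeR adjusted p = 0.0504), Col5a3 1.18 (0.0748), Col1a1 1.42 (0.289), Col3a1 1.03 (0.258) and Col1a2 0.87 (0.278). Over the 19 expressed members the median was 0.66, against 0.01 over all genes at that level, and 16 were positive. In 3 members every ADKO library lay above every control, as in 2.98% of all genes. Of the collagen-processing genes Loxl2 alone was called (log2 fold change 0.88, edgeR adjusted p = 0.0497), a call kept in 3 of 11 fits without 1 library and 3 of 7 other settings (adjusted p up to 0.21 over all of them). Of the activated fibroblast markers Tagln (0.95) and Postn (0.78) rose, with sums of 182 to 204.5 CPM in controls and 211 to 296 in ADKO livers, and Lyve1 rose (1.49) while Thy1 fell (-0.73). The Postn call was lost without any 1 of the 3 FGF21-treated controls and in 2 of 7 other settings (edgeR adjusted p up to 0.11), and that of Thy1 in 7 of 11 fits without 1 library and 3 of 7 others (up to 0.198).

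FGF21 against vehicle was compared within each genotype. In ADKO mice no collagen gene and no other gene was called by edgeR (0%); at an unadjusted p under 0.05 there were 5 of 40 members and 6.71% of all genes, and DESeq2 called 0 members, and 7 genes higher and 8 lower. Fold changes were negative for 17 of the 19 expressed members, with a median of -0.34 on the log2 scale against 0.01 over all genes at that level. Col12a1 had the value -0.70 (95% interval -1.11 to -0.29, edgeR adjusted p = 0.581) and Col27a1 -0.63 (-1.05 to -0.22, edgeR adjusted p = 0.682). For Col4a1 the value was -0.34 (-0.66 to -0.02), for Col3a1 -0.49 (-1.16 to 0.19), for Col1a2 -0.38 (-0.97 to 0.21), for Col1a1 -0.36 (-1.30 to 0.58) and for Col20a1 0.58 (0.08 to 1.07). The intervals of the type I and III chains were the widest of these.

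A single library bore on this comparison. Replicate 3 of the FGF21-treated ADKO group was the highest of its 8 for 16 of the 19 expressed members, with 59.9 CPM of Col1a1 beside 4.84 to 30.4 in the others and 133 CPM of Col3a1 beside 23.8 to 78.8. Without it Col12a1 (log2 fold change -0.93, edgeR adjusted p = 0.0207) and Col27a1 (-0.84, edgeR adjusted p = 0.0318) passed the threshold, lower with FGF21. The share of all genes called in that fit is not given here, so these calls cannot be read as particular to collagens. Activated fibroblast sums spanned 241 to 314 CPM with vehicle and 211 to 296 with FGF21 in ADKO livers, and 0 of the 6 markers were called. The cholangiocyte sum, mostly Spp1, spanned 85.8 to 196 CPM (median 115) with vehicle and 50.3 to 242 (median 64.0) with FGF21, with 0 of 6 called, and the 242 was that same replicate 3, which also had the highest Epcam (6.05 CPM) and Krt19 (4.06) of its group. The part of these cells in the collagen values was not tested.

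In control mice no collagen gene was called for FGF21 by edgeR (0 of 40 also at an unadjusted p under 0.05, which 6.16% of all genes reached, and 0 by DESeq2), beside 13 genes in all (0.0542%). The fibrillar sum was 76.4 ± 12.1 CPM (SD, n = 3) with FGF21 and 97.8 ± 40.2 (SD, n = 7) with vehicle, and the type IV sum 49.7 ± 3.52 and 54.5 ± 9.60. Of the 19 expressed members 15 had a negative fold change, with a median of -0.18. In ADKO mice the corresponding sums with FGF21 were 152 ± 83.6 CPM for fibrillar and 97.9 ± 30.0 for type IV collagens (SD, n = 8).

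**Figure D5:**
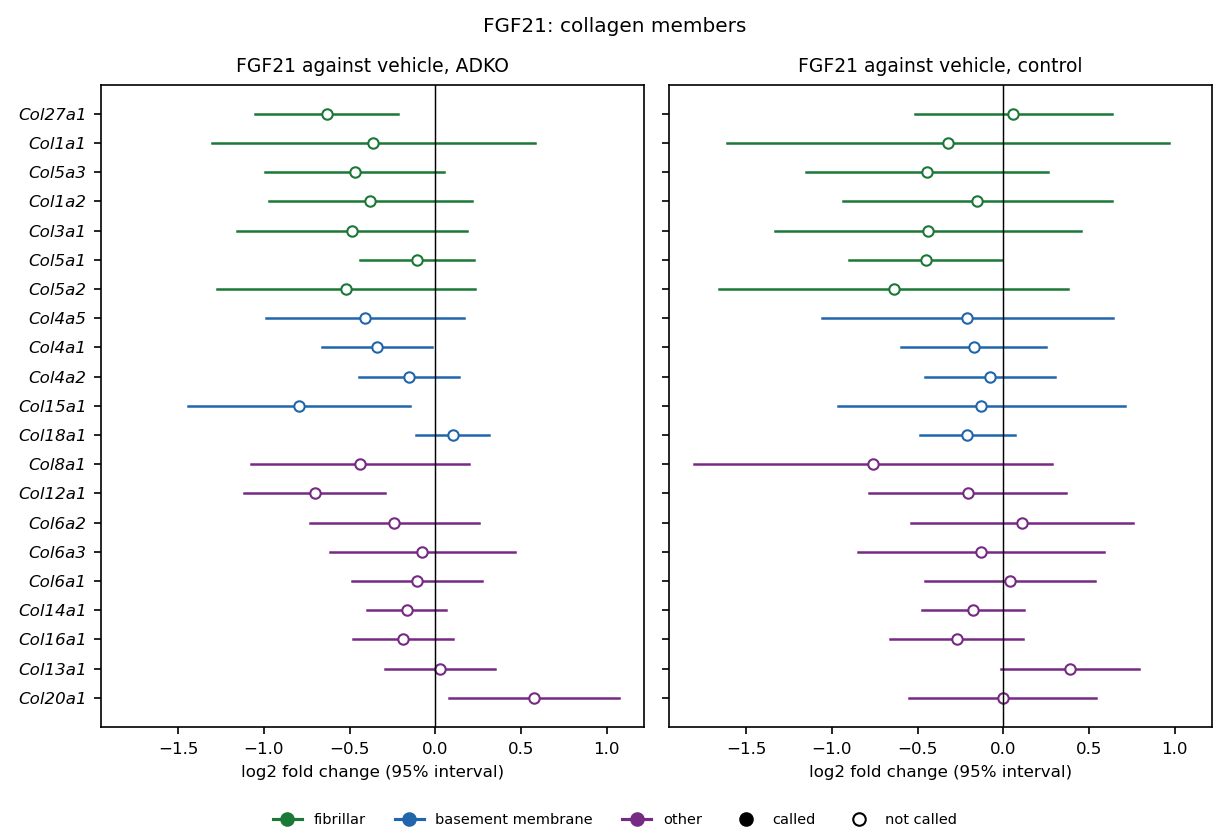
Log2 fold change of FGF21 against vehicle with its 95% interval for 21 collagen genes in ADKO (left) and control (right) mice. All points are open, since none was called; in ADKO mice the intervals of Col27a1 and Col12a1 lie below 0, as do those of Col4a1 and Col15a1, and that of Col20a1 lies above.

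Whether the treatment effect differed between genotypes was tested as an interaction, which uses the same 4 groups as the comparisons above, so its values are not independent of them. No member was called by edgeR (0 also at an unadjusted p under 0.05, which 4.86% of all genes reached, and 0 by DESeq2), beside 1 gene of all (0.00417%). The Col27a1 value was -0.69 on the log2 scale (95% interval -1.40 to 0.02, edgeR adjusted p = 0.984), Col12a1 -0.50 (-1.2 to 0.21), Col4a1 -0.17 (-0.70 to 0.36), Col4a2 -0.08 (-0.55 to 0.40) and Col20a1 0.58 (-0.16 to 1.32). The calls under vehicle that were missing under FGF21 were therefore not shown to differ between treatments for any member.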

How the data were processed

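Liver RNA of 24 mice was enriched for poly(A), made into dUTP-marked libraries and sequenced. The authors deposited whole-number counts per gene for 23972 genes. The submitters' processing notes name GRCm38, cutadapt 4.8, FastQC 0.11.8, STAR 2.7.8a and RSEM 1.3.3 without stating their roles, so the counts may be rounded estimates, and reads shared between overlapping genes may have been split by a model. The smallest gene total was 2, and all values were whole numbers.

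Groups came from the genotype and treatment labels. One edgeR 4.0.16 model (R 4.3.3) of all 4 groups, with TMM scaling, estimated dispersions and a robust quasi-likelihood F test, was fitted to all genes without a filter on low counts, and p-values were Benjamini-Hochberg adjusted over 23972 genes. The 5 contrasts were ADKO against control under vehicle and under FGF21, FGF21 against vehicle in each genotype, and the interaction. A call needed an adjusted p under 0.05 and a fold change over 1.5. Standard errors were derived from the F statistic, and intervals are 95% intervals from them by a normal quantile. They are narrower than the F test implies. An interval can exclude 0 where the unadjusted p is above 0.05, as for Col4a3 in ADKO against control under FGF21. Log2 CPM used a prior count of 2. CPM per kb divided by transcript length from GENCODE M21, in which 23926 genes were matched. Alternatives were DESeq2 1.42.0, its size factors, edgeR's filterByExpr, only the groups compared, the animal-number series or each library's slope on gene length as a covariate, no fold threshold, and leaving out libraries. Intervals therefore include the spread between animals, while the limit of 3 counts covers counting error only.

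Named genes were the members called in any contrast, 13 members fixed by name, up to 4 called genes of each pathway or marker list, Lmna and Fgf21. The members, lists and tests were chosen with earlier results of these data known. On simulated counts for ADKO against control under vehicle (23972 genes), edgeR called 92% of 100 genes changed by 1 on the log2 scale and 98% of 100 changed by 2, plus 2 unchanged genes. The changed genes were drawn from those with a mean of at least 1 CPM, so these shares do not cover genes below that level. No protein sequence was used here.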

Additional observations from a re-analysis of the deposited data

Results flagged for a closer look

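In 63 groups of 4 to 10 libraries, 9 held a library set apart from the rest by Dixon's criterion on log2 CPM. The groups came from 19 named collagen genes and the fibrillar and type IV sums. Chance alone sets apart about 1 in 20 such groups if they are independent, and groups that share libraries are not. Replicate 3 of the FGF21-treated ADKO mice was the high one for 4 genes. Its Col27a1 level was 19.3 CPM (others 6.44 to 10.5), Col6a3 28.3 (6.04 to 10.5), Col14a1 87.0 (52.4 to 65.0) and Col5a2 10.9 (3.49 to 5.99). Vehicle-treated control replicate 4 was the high one for 3 genes, with Col5a2 at 20.8 CPM (others 3.61 to 4.72), Col1a2 at 29.9 (11.6 to 16.9) and Col6a2 at 11.65 (5.31 to 6.86). Col20a1 had a low library in both ADKO groups, at 0.225 CPM in vehicle replicate 2 (others 0.463 to 0.633) and 0.334 CPM in FGF21 replicate 5 (0.639 to 0.822). The cause of these values was not tested.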

How the results depend on the processing

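Under vehicle the calls of Col27a1, Col4a1, Col4a2, Col12a1, Col5a3, Col8a1 and Col20a1 kept their direction and passed in 13 of 13 fits without 1 library and in 7 of 7 other settings. Col4a5 missed with the number series as covariate (edgeR adjusted p = 0.0529), and Col1a2 (0.053) and Col3a1 (0.0904) without the 3 libraries of steepest slope on gene length; Col3a1 also missed with the number series (0.0954). Collagens called higher numbered 9, with 7 (number series, or without the steepest 3 libraries) to 12 (only the groups compared) across settings and 7 to 13 without 1 library, the 13 being without control vehicle replicate 4; over all genes the share called higher was 5.12%, 3.98% with the number series, 5.04% without the steepest 3 libraries and 5.55% with only the groups compared. That share is not given for the fits without 1 library. Control vehicle replicate 4 was the highest of its group for 13 of the 19 expressed members, and ADKO vehicle replicate 4 the lowest of its own for 13. The members therefore did not vary independently. Fibrillar genes called higher numbered 4, 2 without the steepest 3 libraries, and 2 to 6 without 1 library. With adjusted p alone, 2 collagens were lower, the added 1 being Col18a1, a basement membrane collagen. Of the members not called, Col1a1 passed with DESeq2 (adjusted p = 0.0164), filterByExpr (0.0286), only the groups compared (0.0286) and the length slope (0.0495), Col6a2 with the first 3 of these (0.0262, 0.0367 and 0.0389) and Col6a3 with only the groups compared (0.0138).

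Under FGF21 the number called higher, 2, became 5 with DESeq2, 4 with filterByExpr, 4 with the length slope, 0 with only the groups compared, 0 without the steepest 3 libraries and 1 to 4 without 1 library. The share of all genes called higher moved too, from 1.61% to 2.42%, 3.24%, 2.29%, 0.864% and 1.01% in these 5 settings. Basement membrane genes called higher went from 2 to 0 in both of the settings that gave 0, and to 1 to 2 without 1 library; the call of Col20a1 was lost in the same settings, leaving 0 lower genes, and the range without 1 library was 0 to 1. Fibrillar genes called higher, 0, became 2 with DESeq2, 2 with filterByExpr, 1 with the length slope and 0 to 1 without 1 library. For FGF21 against vehicle in ADKO mice, 0 to 2 collagens (fibrillar 0 to 1) were called lower without 1 library, the 2 being without replicate 3 of the treated group. The share of all genes called in those fits is not given here. In control mice and in the interaction no member was called under any setting.

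Sign changes touched uncalled values only. For FGF21 in control mice (log2), Col20a1 went from -0.0034 to 0.0065 (DESeq2), 0.010 (its size factors), 0.0016 (filterByExpr) and 0.17 (number series), and ran from -0.15 to 0.16 without 1 library; Col1a2 became 0.030 and Col4a2 0.0074 with the number series. Without 1 library, Col1a2 ran from -0.32 to 0.066, Col4a5 from -0.36 to 0.035, Col27a1 from -0.057 to 0.18 and Fgf21 from -0.22 to 0.72, and Fgf21 became -0.29 without the steepest 3. In the interaction Col3a1 became 0.028 without the steepest 3 (-0.38 to 0.10 without 1 library), Col8a1 -0.16 with the number series (-0.0037 to 1.01) and Col5a3 ran from -0.41 to 0.44. For genotype under FGF21, Fgf21 became -0.037 with the number series (-0.056 to 0.63 without 1 library), Col18a1 ran from -0.25 to 0.069, P3h2 from -0.093 to 0.29 and Lum from -0.042 to 0.28. For FGF21 in ADKO mice Col6a1 ran from -0.28 to 0.024 and Col6a3 from -0.45 to 0.039. A further 18 member values, 9 genes in the last 2 contrasts (FGF21 in controls and the interaction), are not given singly; 9 of them changed sign in some setting and 0 were called in any.

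No paired analysis was possible because each animal number occurs once and no group shares one with another. DESeq2 gave no adjusted p for Col8a1 in the interaction, and Itga2 and Cftr did not pass filterByExpr. Total counts were even across libraries. The 3 FGF21-treated controls, the 3 libraries of steepest slope (1 of them an FGF21-treated control) and the low members limit the comparisons.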
